A study of Mus musculus with 154 samples.

Results

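Apolipoproteins are the proteins that coat plasma lipoproteins, and the liver makes most of them. The 10 genes described here were taken by symbol, namely Apoa1, Apoa2, Apoa4, Apoa5, Apob, Apoc1, Apoc3, Apoe and Apoh, which encode apolipoproteins, and Mttp, which encodes the transfer protein needed to load apolipoprotein B with lipid. All 10 were found among the 13289 genes of the count table, and the lowest value of any of them in any mouse was 897 counts. RNA-Seq counts came from the caudate lobe of the liver of 154 mice, all given as male, 5 weeks old and fasted overnight, from 24 strains. The control strain was C57BL/6J (B6, n = 20). The 8 single chromosome substitution strains (CSSs), A3, A4, A5, A6, A8, A10, A14 and A17, are otherwise B6 but heterozygous for the numbered chromosome of strain A/J (63 mice, 8 per strain and 7 of A5). The 15 double CSSs are heterozygous for a pair of A/J chromosomes (71 mice, 3 to 6 per strain), and A14:A8 stands for the cross with an A14 dam and an A8 sire. No strain received a treatment, and since a whole chromosome was exchanged, no effect below can be assigned to a single gene on it.

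Lipoprotein assembly in hepatocytes begins when apolipoprotein B is lipidated by the microsomal transfer protein and leaves the cell in very low density lipoproteins (VLDL). Apolipoproteins A-I and A-II are the main proteins of high density lipoproteins (HDL), the C apolipoproteins and apolipoprotein A-V act on lipoprotein lipase and on the clearance of triglyceride, and apolipoprotein E is a ligand for uptake receptors. Apolipoprotein A-IV is made in the intestine and, in mice, in the liver, where fasting and fat loading are known to raise its transcript. Apoa1, Apoc3, Apoa4 and Apoa5 lie side by side on chromosome 9, and Apoe and Apoc1 on chromosome 7. Of the 8 substituted chromosomes only chromosome 3 carries 1 of the 10 genes, Mttp, so every other effect on these 10 is a trans effect, of a chromosome on a gene that lies elsewhere.

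Sequence upstream of 6 of the genes is shown, because Apob, Apoe, Apoh and Apoa5 fell in the same single CSSs, and Apoa4 and Apoa1 are neighbours of unlike spread. Mttp fell with the first 4, but its window lies within exons and is not shown. The sequences are those of RefSeq on build GRCm38.p6, 5′ to 3′ on the strand of the gene. They come from the 250 bases before a transcript start and stop where an exon of a protein-coding gene begins in GENCODE vM21. Capitals mark a match to 1 of 6 motifs.
Apob, chr12:7977427-7977647, plus strand: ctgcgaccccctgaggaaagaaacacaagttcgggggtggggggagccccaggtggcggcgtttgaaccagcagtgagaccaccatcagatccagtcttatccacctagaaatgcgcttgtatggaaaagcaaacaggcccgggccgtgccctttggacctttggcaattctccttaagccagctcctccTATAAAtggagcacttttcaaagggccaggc
Apoe, chr7:19699189-19699438, minus strand: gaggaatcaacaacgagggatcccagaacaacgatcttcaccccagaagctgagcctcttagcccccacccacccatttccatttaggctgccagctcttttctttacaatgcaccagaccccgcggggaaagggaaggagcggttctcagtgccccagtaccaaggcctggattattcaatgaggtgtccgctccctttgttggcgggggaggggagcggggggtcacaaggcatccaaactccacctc
Apoh, chr11:108395047-108395292, plus strand: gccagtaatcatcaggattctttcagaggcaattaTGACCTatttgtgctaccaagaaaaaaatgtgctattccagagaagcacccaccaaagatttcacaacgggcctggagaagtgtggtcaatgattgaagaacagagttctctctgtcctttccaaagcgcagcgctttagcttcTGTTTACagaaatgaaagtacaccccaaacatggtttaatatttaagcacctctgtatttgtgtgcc
Apoa5, chr9:46268383-46268632, plus strand: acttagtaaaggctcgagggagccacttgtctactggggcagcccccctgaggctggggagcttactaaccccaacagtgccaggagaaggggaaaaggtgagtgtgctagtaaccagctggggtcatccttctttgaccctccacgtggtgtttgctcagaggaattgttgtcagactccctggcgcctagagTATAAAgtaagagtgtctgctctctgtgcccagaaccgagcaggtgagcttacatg
Apoa1, chr9:46228380-46228579, plus strand: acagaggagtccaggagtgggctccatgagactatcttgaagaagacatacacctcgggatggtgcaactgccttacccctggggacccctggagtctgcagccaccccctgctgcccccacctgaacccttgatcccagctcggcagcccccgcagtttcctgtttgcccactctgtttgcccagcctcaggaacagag
Apoa4, chr9:46240594-46240695, plus strand: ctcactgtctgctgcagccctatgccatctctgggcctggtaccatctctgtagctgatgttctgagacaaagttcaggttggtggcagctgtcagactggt
Both strands were searched for the nuclear receptor core AGGTCA, the HNF4 core CAAAGTC, the cAMP response core TGACG, the forkhead core TGTTTAC, the HNF1 core GTTAAT and the TATA box TATAAA, and no match shown overlaps another. The window of Apob held TATAAA 60 bases before the RefSeq start, and that of Apoa5 held it 56 bases before. The window of Apoh held TGTTTAC 71 bases before the start and, farther upstream, AGGTCA read on the other strand. The 250-base windows of Apoa1 and Apoa4, and the window of Apoe shown, held none of the 6. The last 148 bases of the Apoa4 window lie past the annotated start of the gene. Windows of other RefSeq starts, not shown, held TATAAA and GTTAAT for Apoe, and TATAAA 31 bases before the start for Apoa5. Of 32851 windows of that length over all genes, 12.4% held TATAAA, 14% AGGTCA, 3.17% TGTTTAC, 17.8% TGACG, 6.43% GTTAAT and 3.84% CAAAGTC. RefSeq windows were matched for 8 of the 10 genes, all but Apoc1 and Apoc3.

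Liver transcript levels of the 10 genes spanned a wide range. CPM is the count of a gene scaled to a common, TMM-normalized library size. Exon length was that of all annotated exons of a gene joined, namely 1236 bases for Apoa1, 537 for Apoa2 and 2138 for Apoe. The order of the genes per kb depends on that annotation. In B6, and per kb of exon, the HDL genes Apoa1 (6253 ± 894 CPM per kb, SD, n = 20) and Apoa2 (6065 ± 495) stood highest and did not differ beyond their spread. Apoe followed with 5065 ± 291 CPM per kb, and Apoc1, a small inhibitor of lipase and of lipid exchange, with 3265 ± 480. Apob (1129 ± 119 CPM per kb) and Apoh, which encodes a phospholipid-binding plasma protein (1115 ± 73.5), were level with each other. Apoc3, an inhibitor of triglyceride clearance, stood at 759 ± 80.1 CPM per kb. Apoa5, which promotes that clearance (415 ± 69.2), and Apoa4 (387.3 ± 279) did not differ beyond their spread, and Mttp was lowest at 63.7 ± 8.36. Without division by length, Apob was the most abundant of the 10, with 1.59% of all counts, and the 10 genes together made up between 2.87% and 5.19% of the counts of a mouse.

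Identity and position are given from GENCODE vM21 on the same build. Apoa1 (ENSMUSG00000032083) lies on chromosome 9 from 46228580 to 46230466, Apoc3 (ENSMUSG00000032081) from 46232933 to 46235636, Apoa4 (ENSMUSG00000032080) from 46240696 to 46243459 and Apoa5 (ENSMUSG00000032079) from 46268633 to 46271919. Apoc1 (ENSMUSG00000040564) lies on chromosome 7 from 19689481 to 19692660, next to Apoe (ENSMUSG00000002985) from 19696109 to 19699188. Apoa2 (ENSMUSG00000005681) is on chromosome 1 from 171225054 to 171226379, Apob (ENSMUSG00000020609) on chromosome 12 from 7977648 to 8016835, Apoh (ENSMUSG00000000049) on chromosome 11 from 108343354 to 108414396, and Mttp (ENSMUSG00000028158) on chromosome 3 from 138089854 to 138144968. Annotated transcripts on the opposite strand overlap Apoa4 and Apoa5, and since the strand setting of the read counting is not given in the sources used here, reads from them cannot be told apart from those of the gene.

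The libraries held between 4638701 and 30465477 counts per mouse, with a median of 18806894 in B6. A single mouse of A14:A4 had 2.94 CPM from Y-linked genes, against 228 CPM or more in all other mice. It was kept as labelled, and the counts of calls without it are given below. Of 5 hepatocyte marker symbols searched, 4 matched (Alb, Ttr, Serpina1b and Cps1), and they summed to between 42160 and 136609 CPM. The symbol Tf did not match, and other symbols of that gene were not searched, so its level is not known here. Of 5 enterocyte symbols searched only Fabp2 matched, of 5 pancreatic symbols only Cela1, and of 3 adipocyte symbols none. The most alike pair of libraries within a strain still differed by 8.81 times the sampling variance, so no library was counted as a repeat.

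The 10 genes split sharply in how much mice of the same strain differed. The SD of log2 CPM between mice of a strain was 0.99 for Apoa4 and between 0.12 (Apoe) and 0.23 (Mttp) for the other 9 genes. Among all genes of the table the within-strain SD of Apoa4 stood at percentile 99.6, that of Apoa1 at 38.8 and that of Apoe at 4.16. The highest mouse exceeded the lowest by 26.9-fold for Apoa4, by 3.43-fold for Mttp and by between 2.11-fold and 2.60-fold for the other 8 genes. The within-strain SD of Apoa4 was 5.03 times that of its neighbour Apoa1 (permutation test over 100000 draws with the genes swapped within mice, two-sided, p = 1e-05, the smallest these draws can give). The ratio was 5.81 in B6 alone, 5.62 with Apoc3 in place of Apoa1, and 4.66 after 5 surrogate variables, which are estimates of hidden shared variation, had been removed. The contrast of Apoa4 with a stable gene was chosen with this spread known, so the p-value is no evidence of it. The size of the difference is given by the ratios alone.

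**Figure D1:**
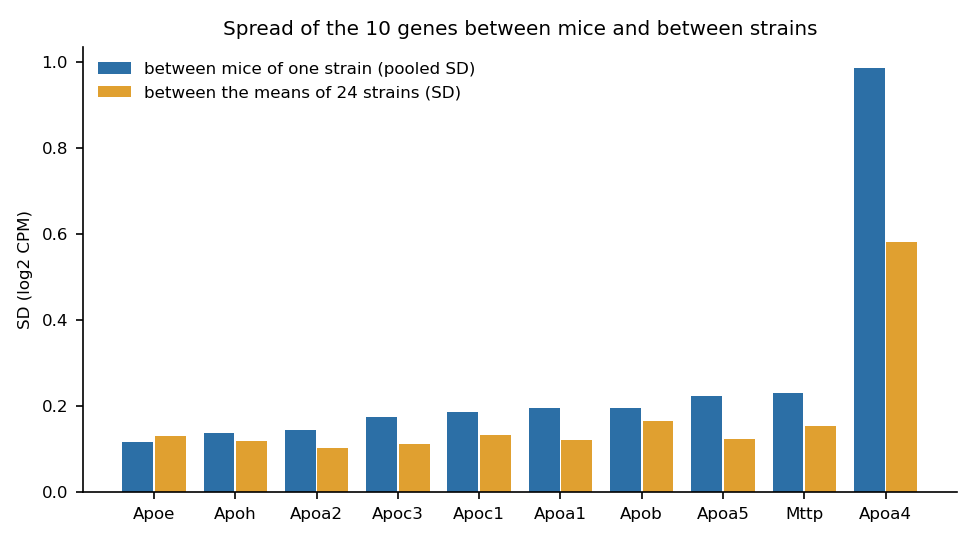
Bars give the SD of log2 CPM of the 10 genes between mice of one strain (blue, pooled over 24 strains) and between the means of the 24 strains (orange). Apoa4 stood at 0.99 within strains and 0.58 between strain means, and the other 9 genes at 0.23 or less within strains and 0.17 or less between them.

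For differences between strains, the quasi-likelihood F-test of edgeR was applied to the counts, fitted to all genes with 8 main effects, 15 interactions and 5 surrogate variables, and called at a false discovery rate (FDR) of 0.05. All 10 genes differed between strains in the joint test of all strain terms, which 51.4% of all genes passed. In the joint test of the interactions, which 27.4% of all genes passed, Apoe, Apob, Mttp, Apoh, Apoc1 and Apoc3 were called, and Apoa5 (FDR = 0.054), Apoa2 (0.063), Apoa4 (0.095) and Apoa1 (0.110) were not. Of 80 main effects on the 10 genes, 16 were called, 5 higher and 11 lower than B6. Over all genes 11.1% of main effects were called, 5.32% higher and 5.74% lower. Of 150 interactions, 18 were called, against 5.96% over all genes (3.35% positive, 2.61% negative), and 15 of these were positive. Of 150 differences between a double CSS and B6, 4 were called, against 3.98% over all genes.

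Chromosomes 8 and 14 accounted for 13 of the 16 main effects called, and 11 of these were decreases. Apob, Mttp, Apoe, Apoh and Apoa5 fell in both single CSSs, Apoa1 fell in A8, and Apoc1 rose in both. Among all genes, 29.6% were called in A8 (12.9% higher, 16.7% lower) and 22.5% in A14 (9.98% higher, 12.6% lower). The 20 B6 mice serve as reference for both. A3, A4 and A5, with 3.7%, 13.5% and 0.768% of all genes called, had no called effect on any of the 10 genes, including the effect of chromosome 3 on Mttp, the single cis effect (log2 fold change -0.03 ± 0.08, SE, FDR = 0.903).

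Apob, the structural protein of VLDL, had a lowest, median and highest level of 11655, 15637 and 17641 CPM in the 20 B6 mice. In the 8 mice of A8 it lay between 8758 and 16689 CPM (median 11492), and in the 8 of A14 between 8770 and 16347 CPM (median 11503). The groups overlapped, but 4 of 8 mice of A8 and 5 of 8 of A14 were below the lowest B6 mouse. The fitted log2 fold change was -0.33 ± 0.08 (SE) in A8 (FDR = 0.00118) and -0.37 ± 0.08 in A14 (FDR = 0.000134).

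Mttp, its lipid-loading partner, ranged from 281 to 466 CPM in B6, with a median of 396. It lay between 148 and 417 CPM in A8 (median 278) and between 180.5 and 430 CPM in A14 (median 270). Again the groups overlapped, and 4 mice of A8 and 5 of A14 were below every B6 mouse. The fitted change was -0.35 ± 0.09 in A8 (FDR = 0.00124) and -0.37 ± 0.08 in A14 (FDR = 0.000399). With 10 in place of 5 surrogate variables these were -0.08 (FDR = 0.566) and -0.12 (FDR = 0.370), and the calls were lost.

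Apoe showed the clearest separation. B6 mice lay between 9482 and 12027 CPM (median 10850). Mice of A8 lay between 6314 and 10656 CPM (median 8178), with 7 of 8 below all B6 mice, and mice of A14 between 7516 and 10738 CPM (median 8883), with 6 of 8 below. The fitted change was -0.24 ± 0.05 in A8 (FDR = 2.39e-05) and -0.16 ± 0.04 in A14 (FDR = 0.00437). The difference of the mean levels before surrogate variables were fitted was larger, -0.44 in A8 and -0.29 in A14.

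Apoh ranged from 1566 to 2019 CPM in B6, from 1047 to 1910 CPM in A8 and from 1147 to 1817 CPM in A14, with 7 and 5 of 8 mice below the B6 range. Its fitted change was -0.21 ± 0.06 in A8 (FDR = 0.00304) and -0.23 ± 0.06 in A14 (FDR = 0.000788). Apoa5 ranged from 747.6 to 1320 CPM in B6, from 533 to 1040 CPM in A8 and from 641 to 1190 CPM in A14. It fell by 0.30 ± 0.10 on the log2 scale in A8 (FDR = 0.0128) and by 0.25 ± 0.09 in A14 (FDR = 0.0322). The Apoa5 calls were lost with 10 surrogate variables, whereas Apoh and Apob in both strains and Apoe in A8 remained called. Apoa1 fell by 0.21 ± 0.08 in A8 (FDR = 0.0311), where its mean was lowest of the 24 strains, and was -0.19 and not called (FDR = 0.0656) without mouse E733 of A14:A4. The Apoa1 call held under 7 of 10 other settings, with values from -0.40 to -0.12 (highest FDR = 0.427).

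Apoc1 was the exception in direction. It lay between 1985 and 3279 CPM in B6, between 2026 and 3036 CPM in A8 and between 2233 and 3201 CPM in A14, so no mouse of either strain left the B6 range. The fitted increase was 0.18 ± 0.06 in both strains (FDR = 0.0231 and 0.0144). It was 0.13 and 0.10 without surrogate variables, and -0.028 (FDR = 0.814) and 0.0071 (FDR = 0.964) with 10, and none of these was called.

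The hepatocyte markers moved with these genes. Their 4-gene sum had a median of 97022 CPM in B6 (range 80817 to 136609), 62708 CPM in A8 (42160 to 89377) and 71238 CPM in A14 (47538 to 104115). In the double CSS A14:A8 the median was 96072 CPM (79231 to 103950). The single pancreatic and enterocyte markers had higher medians than in B6. The pancreatic marker Cela1 had a median of 7.03 CPM in A8 and 6.32 CPM in A14 against 4.64 CPM in B6, and the enterocyte marker Fabp2 of 105.9 and 87.8 against 82.7 CPM. The median sum of 5 endothelial markers was 287 CPM in A8 and 304 CPM in A14 against 280 CPM in B6. In the same order, 5 stellate cell markers had 340 and 338 against 325 CPM, and 4 cholangiocyte markers 35.7 and 33.3 against 31.98 CPM. The 6 Kupffer cell markers had 383 and 410 against 368 CPM, and the 4 erythroid markers 216.7 and 179.7 against 219.6 CPM. The part of these differences in the levels of the apolipoprotein genes was not tested, and in whole tissue fewer cells of a type and less RNA per cell cannot be told apart.

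In the double CSS A14:A8 the same genes were higher than the single CSSs would give together. The interaction, on the log2 scale, is what a double CSS shows beyond its single effects added up, and it was called for 6 of the 10 genes, against 32.4% of all genes (18.1% positive, 14.3% negative). It was positive for Apob, Mttp, Apoe, Apoh and Apoa5 and negative for Apoc1. The 5 mice of A14:A8 had 15506, 16673, 17395, 18138 and 18557 CPM of Apob, all within or above the B6 range. The interaction on Apob was 0.80 ± 0.13 (SE, FDR = 3.49e-07), and the double CSS differed from B6 by 0.10 (95% interval -0.07 to 0.27).

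Apoe lay at 10861, 11126, 11357, 11400 and 11537 CPM in these mice, above all 8 mice of A8 and all 8 of A14. Its interaction was 0.54 ± 0.07 (FDR = 3.05e-09), and the double CSS differed from B6 by 0.14 (95% interval 0.04 to 0.24, FDR = 0.080). Mttp had 344.1, 344.2, 414.0, 448.1 and 457.4 CPM, an interaction of 0.74 ± 0.14 (FDR = 8.11e-06) and a difference from B6 of 0.03 (95% interval -0.16 to 0.21). The Mttp interaction was 0.23 (FDR = 0.263) with 10 surrogate variables. Apoh (0.51 ± 0.09, FDR = 5.64e-06) and Apoa5 (0.48 ± 0.15, FDR = 0.00980) behaved alike in sign.

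The spread of Apoa5 in A14:A8 was small, with 926, 933, 965, 967 and 989 CPM. Apoc1 had 1809, 2083, 2171, 2292 and 2481 CPM and an interaction of -0.42 ± 0.10 (FDR = 0.000416). None of the 10 genes was called in A14:A8 against B6 (0 of 10, and 4.82% of all genes). At an unadjusted p under 0.05 the Apoe and Apoc3 differences would pass. All 6 interactions stayed called with any 1 of the 5 A14:A8 mice left out. With 10 surrogate variables, however, the calls on Apoc1 (-0.079, FDR = 0.646) and Apoa5 (0.40, FDR = 0.124) were lost, as was that on Mttp. Both the main effects and the interaction rest on the same B6, A8 and A14 mice, so that a low mean in a single CSS enters both.

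**Figure D2:**
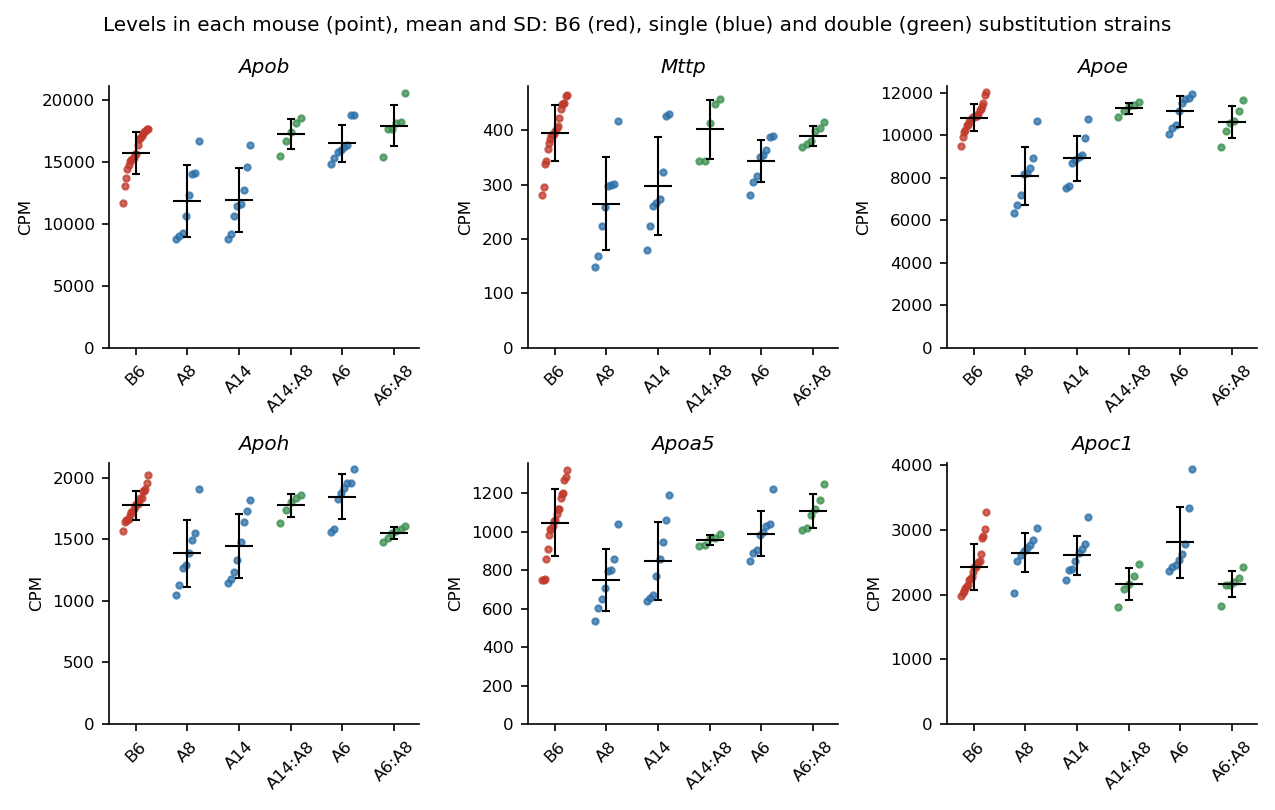
CPM of 6 genes in each mouse (points, spread sideways in order of level) of B6 (red, n = 20), the single CSSs A8, A14 and A6 (blue, n = 8 each) and the double CSSs A14:A8 (n = 5) and A6:A8 (n = 6, green), with mean and SD. Apob, Mttp, Apoe, Apoh and Apoa5 were lower in A8 and A14 than in B6, and Apob in A14:A8 lay between 15506 and 18557 CPM.

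Chromosome 8 took part in 15 of the 18 interactions called on the 10 genes. Over all genes, 11879 interactions were called, and most of them involved chromosome 8 as well. The A14:A8 cross held 4305, A6:A8 3299, A17:A8 1154 and A3:A8 1005. The large part of chromosome 8 was thus not particular to the 10 genes. In A6:A8, interactions on Apoa5 (0.51 ± 0.15, FDR = 0.00574), Mttp (0.48 ± 0.13, FDR = 0.00364), Apoa1 (0.34 ± 0.12, FDR = 0.0242), Apob (0.33 ± 0.12, FDR = 0.0388), Apoe (0.22 ± 0.07, FDR = 0.0169) and Apoc1 (-0.41 ± 0.09, FDR = 0.000503) were called, against 24.8% of all genes (13.4% positive, 11.4% negative). The 6 mice of A6:A8 had between 1007 and 1248 CPM of Apoa5 and between 368.5 and 415.0 CPM of Mttp, and 5 of the 6 were above every B6 mouse in Apob. Apoh was the gene that did not follow, with an interaction of 0.01 ± 0.09 (FDR = 0.939) and 3 of 6 mice below the B6 range. With 10 surrogate variables all 6 calls in A6:A8 were lost, with 0.38 for Apoa5 (FDR = 0.203), 0.18 for Mttp (FDR = 0.474), 0.21 for Apoa1 (FDR = 0.432), 0.26 for Apob (FDR = 0.253), 0.14 for Apoe (FDR = 0.376) and -0.092 for Apoc1 (FDR = 0.627). The Apob interaction in A6:A8 held under only 4 of 10 other settings, and was 0.29 and not called with the A14:A4 mouse low in Y-linked counts left out (FDR = 0.0722).

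The other crosses with chromosome 8 gave fewer calls. In A17:A8, Apoe (0.26 ± 0.08, FDR = 0.0186) and Apoc1 (-0.31 ± 0.10, FDR = 0.0324) were called, against 8.68% of all genes, and without mouse E310 of that cross the Apoc1 interaction was -0.29 (FDR = 0.0833). In A3:A8, which had only 3 mice with 9816, 11505 and 11958 CPM of Apoe, the Apoe interaction was 0.28 ± 0.08 (FDR = 0.0204), against 7.56% of all genes called. Leaving out mouse E689 of that cross gave 0.22 (FDR = 0.180). These 4 crosses share the A8 and B6 mice, so their interactions are not independent of each other.

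**Figure D3:**
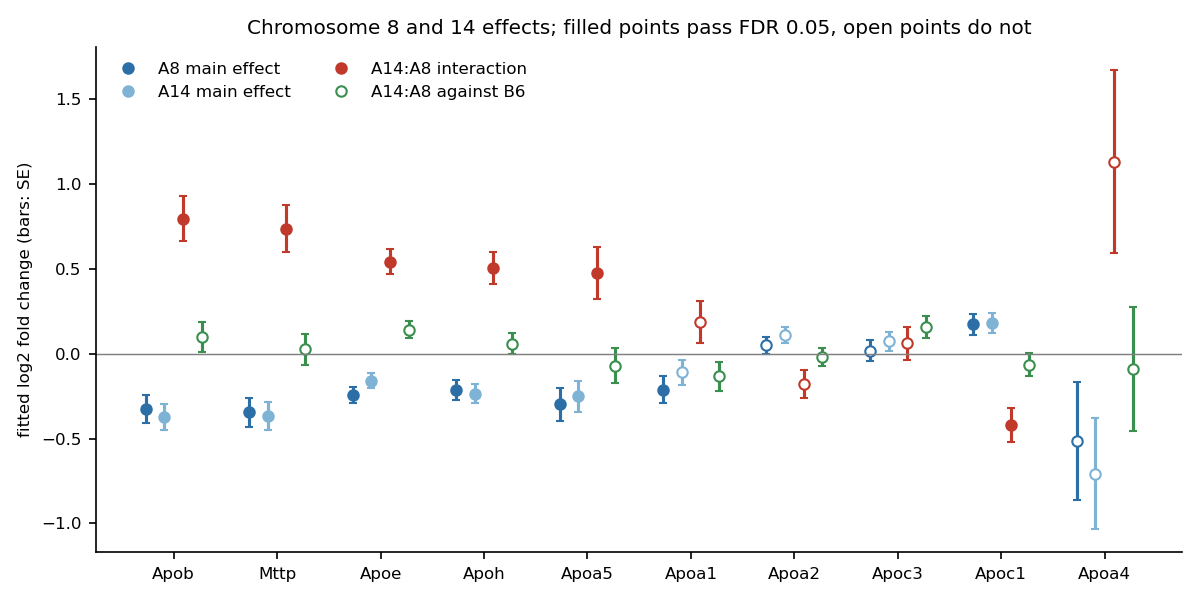
Fitted log2 fold changes (points) with SE (bars) of the 10 genes for the A8 and A14 main effects, their interaction, and the double CSS A14:A8 against B6. Filled points passed an FDR of 0.05 and open points did not. The interactions of Apob (0.80), Mttp (0.74), Apoe (0.54), Apoh (0.51) and Apoa5 (0.48) were opposite in sign to both main effects, and no difference of A14:A8 from B6 passed.

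Outside chromosome 8, single effects were few. Chromosome 14 interacted with chromosome 5 on Apob (0.47 ± 0.13, FDR = 0.0232, with 4.04% of all genes called), and without mouse E176 of that cross the value was 0.45 (FDR = 0.0547). Apoa2, the second HDL protein, rose by 0.18 ± 0.05 on the log2 scale in A17 (FDR = 0.0209, with 3.67% of all genes called), where 5 of 8 mice were above every B6 mouse and levels reached 5841 CPM. The Apoa2 call held under 7 of 10 other settings (lowest value 0.13, highest FDR = 0.110). Apoc3 was higher in A6 (0.21 ± 0.05, FDR = 0.00796, with 8.09% of all genes called), although 0 of 8 mice were above the B6 range of 640 to 1001 CPM, and the call was lost without surrogate variables (0.13). Apoe was called higher in A10 (0.14 ± 0.04, FDR = 0.0322, with 6.64% of all genes called), but its mean level there was 10743 CPM against 10829 CPM in B6. Without surrogate variables that effect was -0.012 (FDR = 0.928), so the sign of the A10 effect depends on the fit.

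Against B6, the double CSS A14:A4 had lower Apoa1 (-0.38 ± 0.09, FDR = 0.000794) and Apob (-0.26 ± 0.09, FDR = 0.0416), where 13.9% of all genes were called. Apoa1 was at 6100 ± 568 CPM (SD, n = 5) there and 7729 ± 1106 CPM in B6. The Apoa1 difference kept its call with any 1 of the 5 mice left out (-0.45 to -0.35). The Apob difference was -0.19 (FDR = 0.232) without mouse E733, the mouse low in Y-linked counts, -0.26 (FDR = 0.0804) without E732 and -0.20 (FDR = 0.211) without E744.

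Apoa4 varied widely in the control strain itself. In the 20 B6 mice it lay between 128 and 1982 CPM, a 15.4-fold range, with a median of 581 CPM and a mean of 703 ± 506.4 CPM. No B6 mouse had fewer than 1472 Apoa4 counts, so the range is far above counting error. Of the 20 mice, 4 lay between 128 and 178 CPM and 7 between 1003 and 1982 CPM. In A14 the 8 mice had 73.6, 158, 172, 299, 737, 905, 1129 and 1957 CPM. The lowest and highest A14 mice nearly spanned the whole series, in which Apoa4 ranged from 73.6 to 1982 CPM. Spread was smallest in A17:A4 (725 to 982 CPM, n = 4), and A8 and A10 also held narrow ranges (195 to 525 and 262 to 676 CPM, n = 8 each).

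Ordered by the mean of log2 CPM, A3:A5 was lowest (7.28 ± 0.83, SD, n = 5), followed by A6:A5 (7.90 ± 1.05, n = 4), A5 (8.41 ± 0.69, n = 7) and A6 (8.53 ± 0.94, n = 8). B6 stood at 9.04 ± 1.21 (n = 20), and A6:A8 (9.46 ± 0.84), A17:A10 (9.65 ± 0.85), A17:A4 (9.70 ± 0.20) and A17:A8 (9.88 ± 0.77, n = 5) were highest. Neighbours in this order differed by less than their SDs throughout. Of the strains that held more than 1 mouse below the B6 minimum of 128 CPM, A3:A5 had 3 of 5 and A3 had 2 of 8, and no mouse of any strain was above the B6 maximum.

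**Figure D4:**
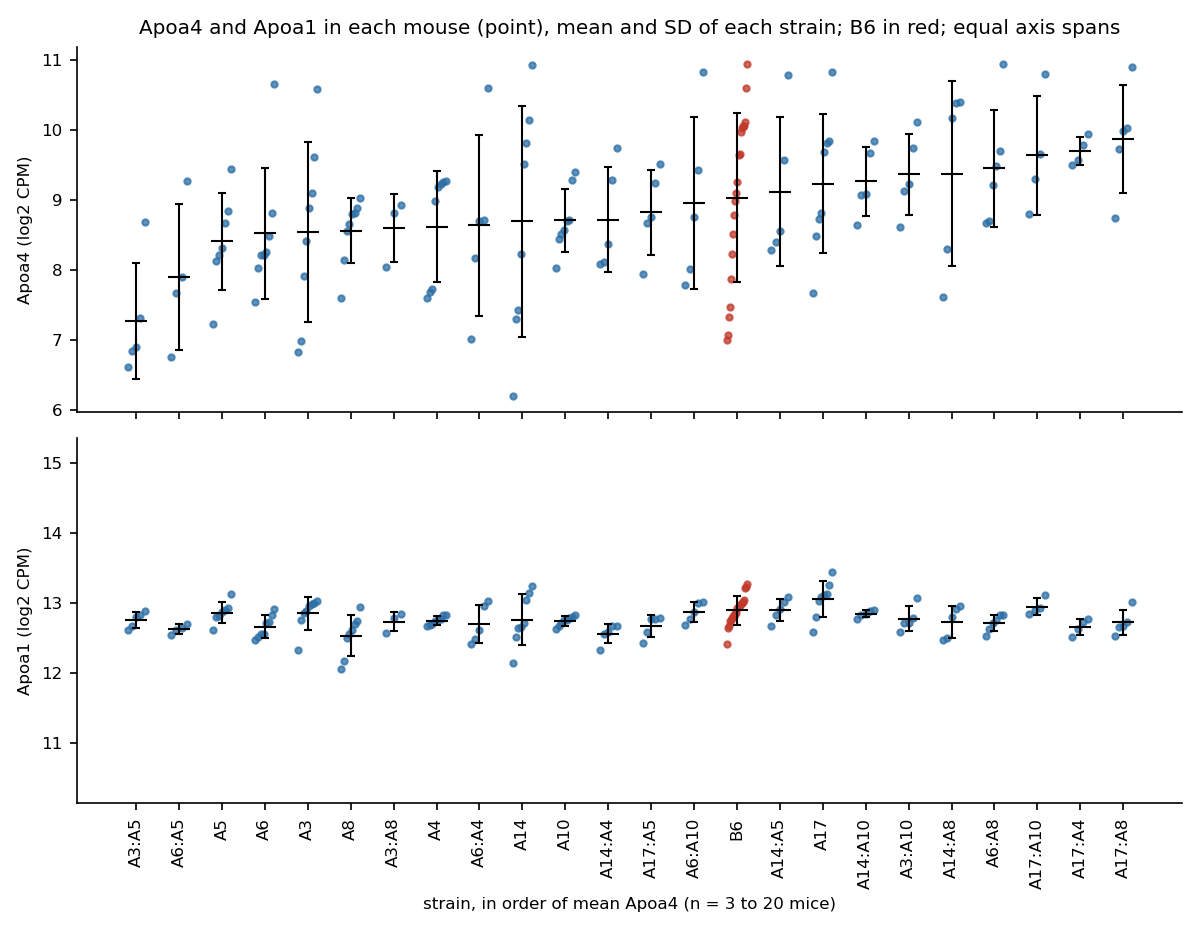
Log2 CPM of Apoa4 (upper panel) and Apoa1 (lower panel) in each of 154 mice (points, spread sideways in order of level), with mean and SD, in 24 strains ordered by mean Apoa4. B6 is red, and both axes span the same number of log2 units. Apoa4 means ran from 7.28 in A3:A5 to 9.88 in A17:A8, and Apoa1 means only from 12.54 in A8 to 13.06 in A17.

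No main effect on Apoa4 was called with 5 surrogate variables. The 8 fitted changes were negative in this fit, from -0.82 ± 0.34 in A10 (FDR = 0.124) to -0.07 ± 0.31 in A6 (FDR = 0.922), and each shares the 20 B6 mice. The direction depended on the fit, since with 10 surrogate variables the changes were 0.53 in A8, 0.45 in A6, 0.36 in A17, 0.32 in A4 and 0.07 in A14, and without any the A17 change was 0.07. With svaseq on the deposited counts the A8 change was -0.86 and was called (FDR = 0.0335). The A8 and A14 values, -0.51 ± 0.35 (FDR = 0.274) and -0.71 ± 0.33 (FDR = 0.109), were larger in size than any called main effect on the other 9 genes, and their SEs were larger as well. To compare the neighbours directly, log2 CPM of Apoa4 minus that of Apoa1 was compared between each single CSS and B6 with an exact permutation test (two-sided). The differences lay between -0.59 in A5 (exact p = 0.206) and 0.04 in A17 (exact p = 0.930), and none passed after adjustment over 8 strains (adjusted p between 0.907 and 0.930). The changes of Apoa4 and Apoa1 in single CSSs could thus not be told apart at this spread.

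Apoa4 was called in a pair of double CSSs. In A3:A5 it was lower than in B6 (-1.42 ± 0.41, FDR = 0.0121, with 13.5% of all genes called), with 98.4, 115, 119, 160 and 413.4 CPM in the 5 mice. This call was lost without mouse E242 (-1.34, FDR = 0.0539) and with 10 surrogate variables (-0.63, FDR = 0.309). Its neighbour Apoc3 was higher in the same mice (0.28 ± 0.06, FDR = 0.00120), with a mean of 948 ± 74.2 CPM against 770 ± 81.2 CPM in B6. The strain label of mouse E241 of this cross (115 CPM of Apoa4) lacks the F1 of the other labels, and the mouse was kept in the group. The other call was the interaction in A14:A10, 1.97 ± 0.56 (FDR = 0.0282, with 4.16% of all genes called). The 5 mice of that cross had 399, 541, 547, 818 and 919 CPM, all inside the B6 range and that of A14. The interaction computed from the mean levels was 0.90, and the fitted value was 0.61 (FDR = 0.593) without surrogate variables. Mttp was called in the same cross (0.47 ± 0.14, FDR = 0.0422), and its call held under 6 of 10 other settings. With 1 mouse of the cross left out, Mttp stayed called in only 1 of 5 fits (highest FDR = 0.0917) and Apoa4 in 3 of 5. Without mouse E224 or E548 neither gene was called.

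Some genes followed Apoa4 from mouse to mouse. Over the deviations of 154 mice from their strain means, the 5 genes of 9615 compared with the highest Pearson correlation were Cidec (r = 0.83, Spearman's rho = 0.82), Dlst (r = 0.81), Ppa1 (r = 0.81), Mat1a (r = 0.79) and Tspan31 (r = 0.78). Cidec encodes a lipid droplet protein, Dlst a subunit of the oxoglutarate dehydrogenase of the citric acid cycle, Ppa1 an inorganic pyrophosphatase, Mat1a the enzyme that makes S-adenosylmethionine in liver, and Tspan31 a tetraspanin. Over the means of the 24 strains the 3 most alike genes were Fbxl6 (r = 0.82), Cidec (r = 0.80) and Ehhadh (r = 0.79), and Fbxl6 had r = -0.02 over mice. These values describe libraries that share depth and normalization, and the r of Apoa4 with the total count was 0.11. Cell type markers had r with Apoa4 of either sign. The r was 0.36 for the hepatocyte marker sum and 0.21 for the erythroid sum. It was -0.22 for the cholangiocyte sum, -0.13 for the endothelial and stellate sums and -0.10 for the Kupffer cell sum. Among single genes it was 0.49 for Fabp2 and -0.28 for Cela1. The enterocyte markers Vil1, Lct and Cdx2 and the pancreatic markers Cpa1, Prss2, Pnlip and Ctrb1 were not found. Neither gene alone can thus be read as content of those cells. The part of cell content in the correlations was not tested.

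In B6 alone the correlation with Cidec was 0.92 (rho = 0.93, n = 20). The B6 mouse with 1982 CPM of Apoa4 had 33.4 CPM of Cidec, the highest of any mouse, and the B6 mouse with 128 CPM had 1.01 CPM. In the same mice Cpt1a, the gatekeeper of mitochondrial fat oxidation, stood at 1005 and 561 CPM and Apoc2, the cofactor of lipoprotein lipase, at 309 and 146.4 CPM. Srebf1, a driver of fat synthesis, stood at 15.2 and 24.8 CPM. Of the 15 genes listed as targets of CREB3L3 and PPARalpha, transcription factors of the fasting response, 8 had r above 0.5 with Apoa4 and the median was 0.56. Of all 9615 genes 3.66% did, and their median was 0.00. Cyp4a10 (r = 0.76), Cyp4a14 (0.73), Ehhadh (0.71) and Cpt1a (0.70) were among the 8, and Fabp1 (-0.04) and Pdk4 (0.04) lay at the other end.

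**Figure D5:**
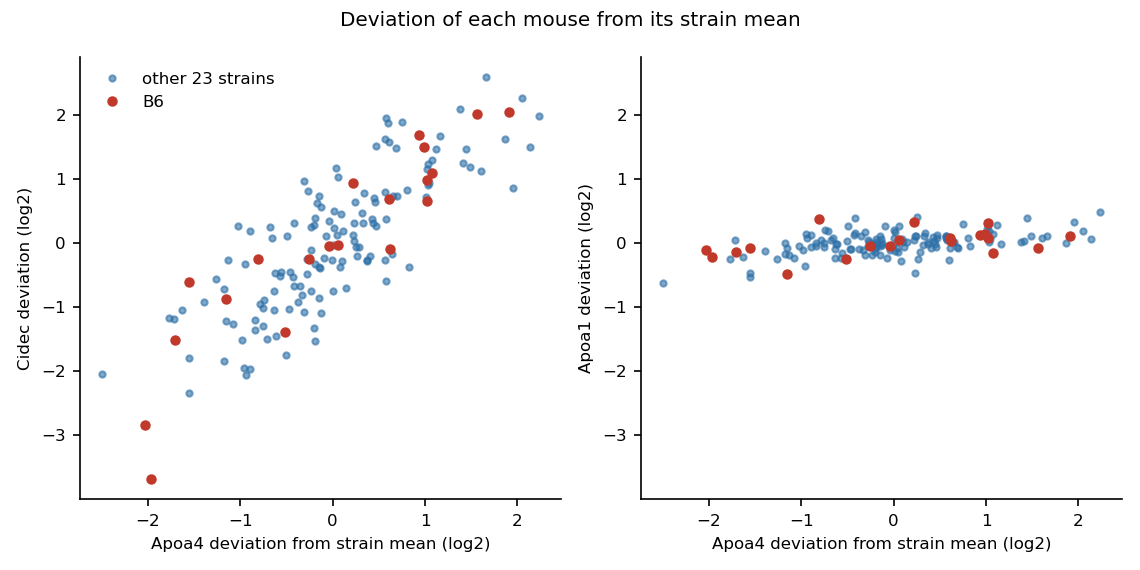
Deviation of each of 154 mice from its strain mean in log2 CPM, for Apoa4 (horizontal axis) against Cidec (left) and Apoa1 (right), with B6 in red and the other 23 strains in blue. Cidec followed Apoa4 (r = 0.83) over its whole range, and Apoa1 moved far less (r = 0.49) on the same vertical scale.

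Among the 10 genes themselves, Apoa4 moved most with Mttp (r = 0.52, rho = 0.54) and with Apoa1 (r = 0.49, rho = 0.44), and against Apoc1 (r = -0.35, rho = -0.39). It was only weakly related to its other neighbours, Apoa5 (r = 0.33) and Apoc3 (r = 0.26). Apoa1 and Apoc3, which also lie side by side, had r = 0.59. The highest value of all 45 pairs was that of Apoe and Apoh (r = 0.67, rho = 0.56), followed by Apoa2 and Apoc1 (r = 0.63) and Apob and Mttp (r = 0.62). Apoe and Apoc1, neighbours on chromosome 7, had r = 0.24. The 5 surrogate variables took up 44.3% of the within-strain variance of Apoa4, 56.4% of that of Apoc1 and 18.5% of that of Apoa5, so the fitted values of the genes were adjusted to different degrees.

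Other genes of the lipoprotein pathway were counted against all genes, of which 16.7% fell and 12.9% rose in A8, 12.6% fell and 9.98% rose in A14, and 18.1% had a positive and 14.3% a negative interaction in A14:A8. Of 19 measured genes for other apolipoproteins and for HDL and VLDL remodelling, 11 fell and 1 rose in A8 (median log2 fold change -0.33), and 9 fell and 0 rose in A14 (median -0.22). Over all genes the median was -0.01 in both. In A14:A8, 9 of the 19 had a positive and 2 a negative interaction (median 0.50, and 0.02 over all genes). Lpl, the lipase that clears triglyceride and that lies on chromosome 8 itself, fell in 6 of 8 single CSSs, by up to -0.90 in A4. Scarb1, the HDL receptor, fell by 0.42 in A8 and had an interaction of 0.62 in A14:A8. Apom, a carrier of sphingosine phosphate, fell by 0.44 in A8 (interaction 0.65), and Apof, an inhibitor of lipid transfer, by 0.32 (interaction 0.50).

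Of 20 genes for VLDL assembly, secretion and lipid droplets, 11 fell and 5 rose in A8, and 7 fell and 2 rose in A14, where 16.7% and 12.6% of all genes fell. In A14:A8, 10 had a positive and 3 a negative interaction. P4hb, the smaller subunit of the transfer protein complex that Mttp encodes the larger part of, fell by 0.42 in A8 and by 0.33 in A14, with an interaction of 0.72. Sar1b, a GTPase of the vesicles that carry VLDL precursors, moved the other way, with 0.44 in A8, 0.29 in A14 and an interaction of -0.75. Pnpla2, the triglyceride lipase of lipid droplets, fell by 0.69 in A8, and Plin5, a droplet coat protein, by 0.47.

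Of 10 genes for lipoprotein receptors and uptake, 6 fell and 0 rose in A8, and 2 fell in A14, a share near the 12.6% of all genes that fell there. In A14:A8, 4 of the 10 had a positive and 1 a negative interaction, against 18.1% and 14.3% of all genes. Cd36, a fatty acid transporter, fell by 0.41 in both strains, Lsr by 0.36 in A8 and Sdc1, a receptor for triglyceride-rich remnants, by 0.38 in both. Vldlr, the receptor for VLDL, fell by 0.83 in A8 and had an interaction of 1.46 in A14:A8. Of 19 measured transcription factors known to act on apolipoprotein genes, 5 fell and 0 rose in each strain. Of all genes, 16.7% fell in A8 and 12.6% in A14. Counted in either direction, the share of factors called was near that of all genes (29.6% in A8, 22.5% in A14). In A14:A8, 4 of the 19 factors had a positive and 1 a negative interaction, against 18.1% and 14.3% of all genes. Hnf4a fell by 0.32 in A8 and 0.29 in A14, with an interaction of 0.41 in A14:A8, Ppara by 0.37 and 0.32 (interaction 0.74), and Creb3l3 by 0.32 and 0.24 (interaction 0.39). Ppargc1a, a coactivator of fasting genes, fell by 0.84 and 0.55. Of the 15 fasting targets, 7 fell in A8 (median -0.40) and 8 in A14 (median -0.43), against 16.7% and 12.6% of all genes. In A14:A8, 6 of the 15 had a positive and 1 a negative interaction (median 0.71), against 18.1% and 14.3% of all genes. Cpt1a fell by 0.72 and 0.60 (interaction 1.06), and Apoc2 by 0.43 and 0.31 (interaction 0.57). Cidec, the gene most like Apoa4, fell by 1.35 in A8 and 1.44 in A14. Apoc2, Cidec, Angptl4 and Plin2 each stand in more than 1 list, and as the hepatocyte marker sum was also lower in A8 and A14, the part of the marker difference in these counts was not tested.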

How the data were processed

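RNA-Seq libraries (TruSeq Stranded Total RNA, single-end) were aligned by the authors with TopHat2 to mm10, unmapped reads were aligned to an individualized A/J genome, and reads were counted per gene with HTSeq-count. The deposited values are raw counts, without normalization, in 13289 genes and 154 mice. The strand setting of the counting, and the flow cell of each library, are not given in the sources used here.

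Symbols and positions came from GENCODE vM21 (13242 identifiers matched). Counts were normalized by TMM in edgeR 4.0.16 (R 4.3.3) and shown as CPM, or as log2 CPM with a prior count of 2. Surrogate variables (5) came from svaseq (sva 3.50.0) on scaled counts. The quasi-likelihood F-test used B6 as reference, with Benjamini-Hochberg adjustment within each effect, separately for cis and trans genes, over all genes, at an FDR of 0.05. A difference of a double CSS from B6 is the sum of its 2 main effects and its interaction. Errors of fold changes are SEs, and 95% intervals are 1.96 SEs wide on each side. The fit was tested on simulated counts with known changes. These were drawn with the spread usual for genes of like level and without hidden shared variation. The simulation thus covers neither the wide spread of Apoa4 nor the choice of surrogate variables.

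The 10 genes, the pathway lists and the tests were chosen with earlier results of these data known. Genes were named by fixed rules: all 10 members, the 4 genes per list with the most called effects, and the genes most correlated with Apoa4 (5 over mice, 3 over strain means) among those with a mean log2 CPM of at least 2. Cyp4a10, Cyp4a14, Fabp1, Pdk4 and Srebf1 were chosen after their values were seen. A gene that the rule for the lists names is not reported here. Alternatives were DESeq2 1.42.0 (test and size factors), 0 or 10 surrogate variables, svaseq on deposited counts, a filter of 15 counts in 75% of mice, a newer quasi-likelihood setting, no cis and trans strata, an FDR of 0.01, and leaving out mice. Each mouse was taken as a replicate of its strain, and litters and cages are not labelled. The permutation p-values rest on the spread between these mice. Those of the F-test rest on the spread left after the surrogate variables, and neither accounts for litters or cages.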

Additional observations from a re-analysis of the deposited data

Results flagged for a closer look

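Of 220 combinations of gene and strain with 4 to 10 mice, 10 held a mouse that stood far from the others of its strain, and chance gives about 1 in 20 groups. The widest gap was for Apoa4 in A6, where 1 mouse was at 10.66 log2 CPM (1621 CPM) and the next at 8.81. The other 9 were low mice: Apoa1 in A3 at 12.33 (next 12.77), Apoa2 in A4 at 11.17 (11.58), Apoa5 in A14:A5 at 9.53 (9.98) and in A17:A10 at 9.84 (10.08), and Apoc1 in A8 at 10.98 (11.30). Apoc3 was at 9.28 in A10 (9.52) and at 9.46 in A3:A10 (9.69), and Apoe at 13.36 in A14:A5 (13.53) and at 13.38 in A17:A5 (13.52).

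An effect of 1 chromosome that differed with the presence of the other was found in 18 interaction tests. In A14:A8 these were 0.80 for Apob, 0.74 for Mttp, 0.54 for Apoe, 0.51 for Apoh, 0.48 for Apoa5 and -0.42 for Apoc1. In A6:A8 they were 0.51 for Apoa5, 0.48 for Mttp, 0.34 for Apoa1, 0.33 for Apob, 0.22 for Apoe and -0.41 for Apoc1. The others were 0.26 for Apoe and -0.31 for Apoc1 in A17:A8, 0.28 for Apoe in A3:A8, 0.47 for Apob in A14:A5, and 1.97 for Apoa4 and 0.47 for Mttp in A14:A10.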

How the results depend on the processing

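Calls on the 10 genes depended most on the surrogate variables. With 10 of them, 7 main effects, 3 interactions, 8 differences of double CSSs from B6 and 3 joint interaction tests were called, in place of 16, 18, 4 and 6. Without any, 31 interactions were called, and with svaseq on the deposited counts 34. At an FDR of 0.01 there were 9 main effects, 9 interactions and 2 double CSS differences. Of 380 values of called effects under 10 alternatives, 306 kept direction and call, 72 lost the call and 2 changed sign. The sign changed for Apoc1 in A8 (-0.028 with 10 surrogate variables) and for Apoe in A10 (-0.012 without any). The cause was not tested. With 1 mouse of a cross left out, interactions called ranged from 0 to 2 in A14:A10, 0 to 1 in A14:A5 and A3:A8, 1 to 2 in A17:A8 and 6 to 7 in A14:A8. Double CSS differences called ranged from 0 to 1 in A3:A8 and from 1 to 2 in A14:A4 and in A3:A5, the last 2 crosses chosen after seeing the data. These fits kept the surrogate variables of all mice. No paired analysis was possible because the labels give no replicate numbers. A joint test with DESeq2 was not run.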
